A study of Danio rerio with 6 samples.

Results

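The anterior neural plate factors described here are 6 transcription factor genes, sox2 (ENSDARG00000070913), sox3 (ENSDARG00000053569), otx1 (ENSDARG00000094992), otx2b (ENSDARG00000011235), six3b (ENSDARG00000054879) and six3a (ENSDARG00000058008). They were chosen by name, with earlier results of these data known, and are 6 of the 32266 genes quantified in every library. RNA-seq was done on whole zebrafish embryos of the Tubingen (TU) strain at 50% epiboly, the stage at which the blastoderm has spread to the equator of the yolk. The MZsmad4a group had 3 libraries and the WT group had 3 libraries, each made from 25 pooled embryos. MZsmad4a embryos received no intact copy of smad4a, neither as maternal product in the egg nor in their own genome, since both parents were homozygous for a CRISPR/Cas9 allele with a small deletion in the part of the gene that encodes the linker, which gives a frameshift and a premature stop codon. WT embryos carried no engineered allele, and the labels name no further treatment of either group.

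Smad4 proteins are the shared partners of the receptor-activated Smads in TGF-β family signalling, which includes the BMP and Nodal pathways. In the vertebrate gastrula, ectoderm takes a neural fate on the dorsal side, where BMP activity is kept low by secreted antagonists such as Chordin and Noggin, and an epidermal fate on the ventral side, where BMP activity is high. SoxB1 factors such as Sox2 and Sox3 mark and maintain neural progenitors. Otx factors mark the future forebrain and midbrain, and Six3 factors mark the most anterior neural plate, from which the forebrain and eyes arise.

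The total of expected counts was between 9807865 (WT replicate 1) and 20833491 (WT replicate 2) per library. smad4a itself (ENSDARG00000075226) averaged 14.3 ± 1.12 CPM in MZsmad4a embryos and 59.3 ± 4.02 CPM in WT embryos (SD, n = 3 each). Its fold change on the log2 scale was -2.05, with an adjusted p of 0.000546, so it was lower in the libraries labelled as mutant. CPM are counts scaled to library size by TMM, and log2 fold changes are MZsmad4a over WT from edgeR's quasi-likelihood test, with p-values adjusted over the 15720 genes that had enough counts. All 6 factors were among these genes. The threshold was an adjusted p of 0.01, at which 0.223% of the tested genes were called higher and 0.490% lower in MZsmad4a embryos.

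Per unit of length, sox3 was the most abundant of the 6 factors in both genotypes. In MZsmad4a embryos it averaged 273 ± 57.2 TPM, followed by sox2 at 95.4 ± 5.07, otx1 at 55.9 ± 26.7, otx2b at 17.2 ± 10.8, six3a at 5.06 ± 1.77 and six3b at 2.69 ± 1.45 TPM (SD, n = 3 each). In WT embryos sox3 averaged 304 ± 6.50 TPM, followed by sox2 at 78.4 ± 2.97, otx1 at 28.7 ± 5.33, six3b at 9.23 ± 2.34, otx2b at 6.84 ± 2.99 and six3a at 1.73 ± 1.01 TPM. The first 3 places were the same in both genotypes, and the last 3 were not. Only neighbours at the low end overlapped in their libraries, which were six3a and six3b in MZsmad4a embryos and six3b and otx2b in WT embryos. A TPM of this kind is an average over a whole embryo, in which fewer cells of a type and less RNA per cell cannot be told apart.

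None of the 6 factors passed the threshold in edgeR. By edgeR's unadjusted p under 0.05, otx1, otx2b, six3a and sox2 were higher and six3b was lower, where 8.68% and 8.81% of all tested genes were higher and lower at that level. DESeq2's Wald test on the same counts, at an adjusted p of 0.01, called 2 of the 6 higher (otx2b and six3a) and 1 lower (six3b), against 1.78% and 1.94% of the genes it gave an adjusted p. In CPM, all MZsmad4a libraries lay above all WT libraries for sox2 and six3a, and all lay below them for six3b. Among all tested genes 11.8% lay above and 11.9% lay below in this way.

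**Figure D1:**
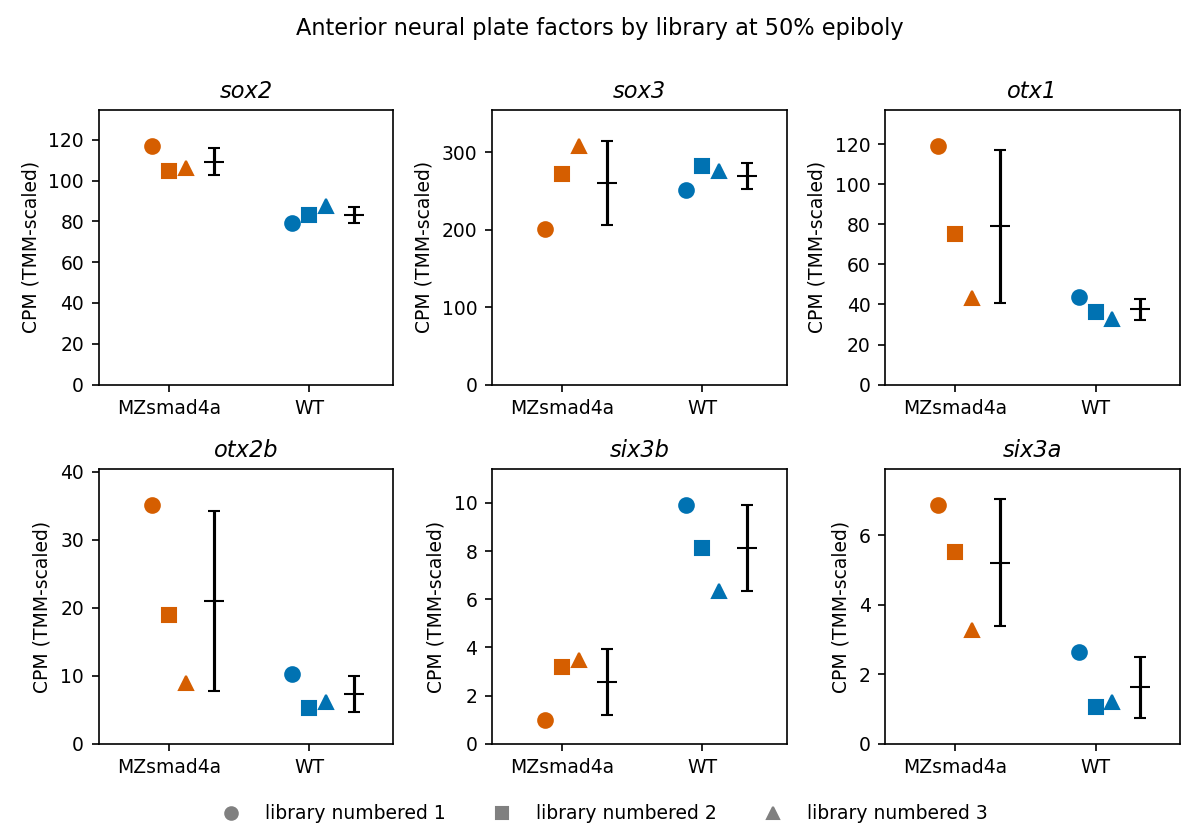
TMM-scaled CPM of each factor in the 3 MZsmad4a (orange, left) and 3 WT (blue, right) libraries, with the marker shape giving the library's number and the black bar the mean ± SD. The MZsmad4a and WT points do not overlap for sox2, six3b and six3a, and the MZsmad4a points of otx1 and otx2b are spread from the WT level upwards.

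sox2, a SoxB1 factor of neural progenitors, had 117, 105 and 106 CPM in MZsmad4a replicates 1, 2 and 3, against 79.4, 83.1 and 87.3 CPM in WT replicates 1, 2 and 3. Every MZsmad4a library lay above every WT library, and each group was tight. The means were 109 ± 6.69 CPM in MZsmad4a embryos and 83.3 ± 3.96 CPM in WT embryos, a ratio of 1.31. The log2 fold change was 0.39 (standard error 0.09, 95% interval 0.18 to 0.61), and its adjusted p of 0.0726 missed the threshold in edgeR's test, as did the 0.0205 from DESeq2. This was the most precise of the 6 estimates, and the interval covers this gene alone, without adjustment for the other genes tested.

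sox3, a SoxB1 factor found broadly in the early ectoderm, had 202, 273 and 308 CPM in MZsmad4a replicates 1, 2 and 3, against 251, 283 and 276 CPM in WT replicates 1, 2 and 3. The groups overlapped, with both the lowest and the highest of the 6 values in MZsmad4a libraries. The means were 261 ± 54.3 CPM in MZsmad4a embryos and 270.0 ± 16.8 CPM in WT embryos. On the log2 scale the fold change was -0.05 with a standard error of 0.15 and a 95% interval of -0.39 to 0.29 (adjusted p = 0.904), so a difference of up to 1.31-fold lower or 1.22-fold higher lay within it. Without MZsmad4a replicate 1 the log2 fold change was 0.11, of the opposite sign.

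otx1, a homeodomain factor of the future forebrain and midbrain, had 119, 75.3 and 43.0 CPM in MZsmad4a replicates 1, 2 and 3, against 43.5, 36.2 and 33.0 CPM in WT replicates 1, 2 and 3. MZsmad4a replicates 1 and 2 lay well above all WT libraries, while MZsmad4a replicate 3 was just below WT replicate 1, so that the groups overlapped. The means were 79.1 ± 38.2 CPM in MZsmad4a embryos and 37.6 ± 5.38 CPM in WT embryos. The log2 fold change was 1.08 (standard error 0.32, 95% interval 0.33 to 1.82, adjusted p = 0.137). It was 0.66 without MZsmad4a replicate 1.

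otx2b, the other Otx factor of the set, had 35.1, 18.9 and 8.99 CPM in MZsmad4a replicates 1, 2 and 3, against 10.3, 5.30 and 6.17 CPM in WT replicates 1, 2 and 3. The libraries of the 2 genotypes were placed much as for otx1: MZsmad4a replicates 1 and 2 stood above the WT libraries, and MZsmad4a replicate 3 lay within their range. The means were 21.0 ± 13.2 CPM in MZsmad4a embryos and 7.25 ± 2.66 CPM in WT embryos. The log2 fold change was 1.55 (standard error 0.48, 95% interval 0.45 to 2.65, adjusted p = 0.143), and 0.96 without MZsmad4a replicate 1. In DESeq2 its adjusted p was 0.00905, past the threshold.

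six3b, a homeodomain factor of the most anterior neural plate, went the other way. It had 0.981, 3.20 and 3.47 CPM in MZsmad4a replicates 1, 2 and 3, against 9.90, 8.11 and 6.33 CPM in WT replicates 1, 2 and 3. Every MZsmad4a library lay below every WT library, and MZsmad4a replicate 1 was far below the other two. The means were 2.55 ± 1.37 CPM in MZsmad4a embryos and 8.12 ± 1.79 CPM in WT embryos. The log2 fold change was -1.66 (standard error 0.43, 95% interval -2.64 to -0.67, adjusted p = 0.0919), with an adjusted p of 0.0043 in DESeq2. These levels rest on few reads, with 17, 58 and 66 expected counts in MZsmad4a libraries and 105, 170 and 116 in WT libraries.

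six3a, its paralogue, had 6.87, 5.52 and 3.26 CPM in MZsmad4a replicates 1, 2 and 3, against 2.64, 1.05 and 1.20 CPM in WT replicates 1, 2 and 3. Every MZsmad4a library lay above every WT library, although MZsmad4a replicate 3 and WT replicate 1 were close. The means were 5.22 ± 1.82 CPM in MZsmad4a embryos and 1.63 ± 0.878 CPM in WT embryos. The log2 fold change was 1.73 (standard error 0.43, 95% interval 0.73 to 2.73, adjusted p = 0.0843), with an adjusted p of 0.00511 in DESeq2. The expected counts were 119, 100 and 62 in MZsmad4a libraries and 28, 22 and 22 in WT libraries. All 36 expected counts of the 6 factors were whole numbers to within 1e-06, as were those of 85.3% of tested genes in all 6 libraries. Reads shared between the 2 six3 copies were not examined here, so their split is uncertain.

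**Figure D2:**
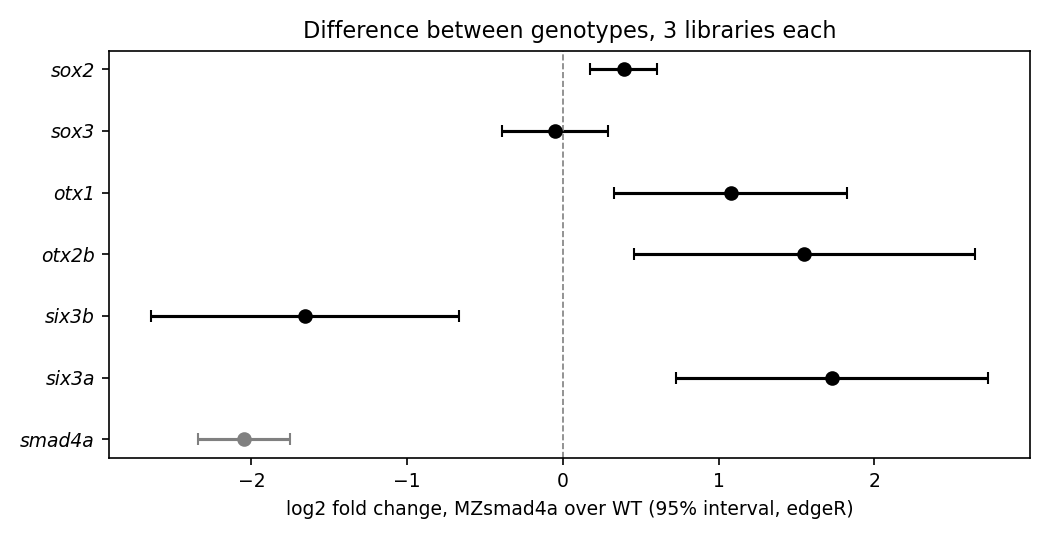
Log2 fold change of each factor, MZsmad4a over WT, with its 95% interval (edgeR, 3 libraries per genotype, not adjusted for the number of genes), and smad4a in grey. Only the interval of sox3, -0.39 to 0.29, contains 0 among the 6 factors, and six3b alone among them lies to the left of 0 with its whole interval.

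The balance between the paralogues six3b and six3a separated the genotypes. This follows from the single genes, since in TPM too six3b lay below and six3a above WT in every MZsmad4a library. six3b made up 13.4, 38.6 and 53.6% of the summed six3 TPM in MZsmad4a replicates 1, 2 and 3, against 80.2, 89.3 and 85.1% in WT replicates 1, 2 and 3. The log2 ratio of six3b to six3a TPM averaged -1.05 ± 1.49 in MZsmad4a embryos and 2.53 ± 0.52 in WT embryos, which differ by -3.58 (p = 0.1 and, adjusted over 3 ratios, 0.15, from a two-sided exact permutation test). With 3 libraries against 3 this test cannot give a p below 0.1, so for six3 the p adds nothing to the separation of the single genes. The 2 genes together had 7.61, 8.93 and 6.72 TPM in MZsmad4a libraries, against 14.6, 9.90 and 8.34 TPM in WT libraries, which overlapped. The ratio had a larger spread among MZsmad4a libraries than among WT libraries, and six3b exceeded six3a in MZsmad4a replicate 3 but not in the other MZsmad4a libraries, whereas it exceeded six3a in all WT libraries.

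The difference between genotypes was smaller for the other pairs. The log2 ratio of sox2 to sox3 TPM was -1.05, -1.64 and -1.80 in MZsmad4a replicates 1, 2 and 3, against -1.92, -2.02 and -1.92 in WT replicates 1, 2 and 3, a difference of means of 0.46 (exact permutation test p = 0.1, adjusted 0.15). All MZsmad4a libraries lay above all WT libraries. The log2 ratio of otx1 to otx2b was 1.53, 1.79 and 2.05 in MZsmad4a libraries, against 1.77, 2.57 and 2.09 in WT libraries, a difference of -0.35 (exact permutation test p = 0.3, adjusted 0.3). Those ranges overlapped.

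**Figure D3:**
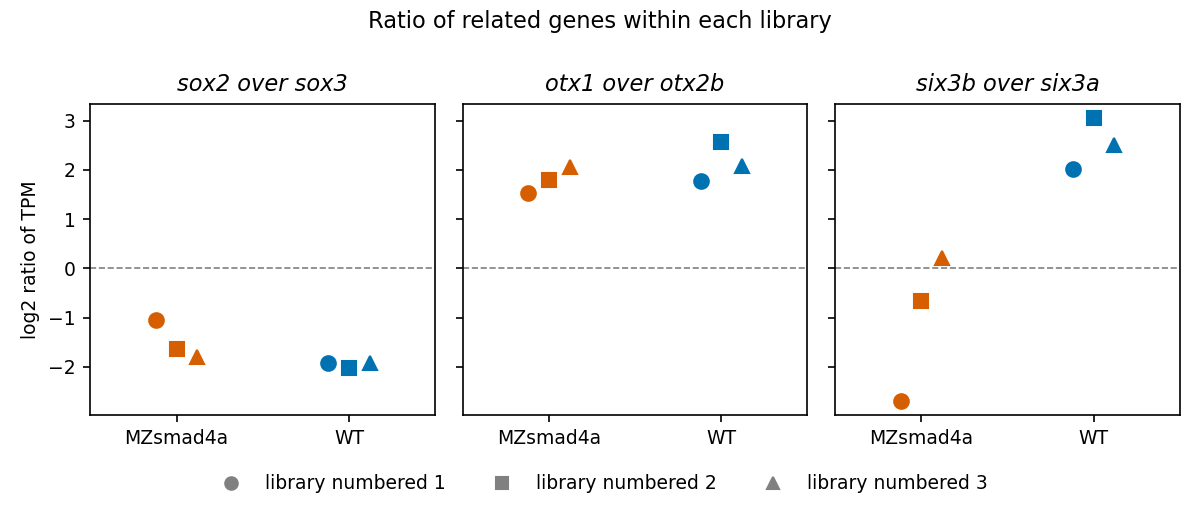
Log2 ratio of TPM within each library for sox2 over sox3, otx1 over otx2b and six3b over six3a, in MZsmad4a (orange, left) and WT (blue, right) libraries, with marker shapes giving the library's number and the dashed line equal TPM. The six3 ratio is above 2 in all WT libraries and between -2.69 and 0.21 in MZsmad4a libraries, while the otx ratios of the 2 genotypes overlap.

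The factors differed in how much they varied among the libraries of a genotype. In MZsmad4a libraries the highest value was 3.90 times the lowest for otx2b, 3.54 times for six3b, 2.77 times for otx1, 2.11 times for six3a, 1.53 times for sox3 and 1.12 times for sox2. The SD of log2 CPM among MZsmad4a libraries exceeded that of 96.4% of tested genes for otx2b, 96.2% for six3b and 92.0% for otx1, and that of 15.2% for sox2. In WT libraries the same shares were 81.2% for otx2b, 63.8% for six3b, 43.7% for otx1 and 8.75% for sox2. six3a was variable in both genotypes (84.0% in MZsmad4a and 90.0% in WT libraries), and sox3 was at 63.8% in MZsmad4a and 14.0% in WT libraries. These shares compare genes of all levels. six3b and six3a had as few as 17 and 22 expected counts in a library, and sox2 at least 842. Counting error therefore enters their SD more, and it was not separated from differences among embryo pools.

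Some factors had their highest or lowest value in the same-numbered library of both genotypes. With 3 libraries per genotype such matches are common. How many of all tested genes had one was not counted, so the matches only describe these libraries. otx1, otx2b and six3a were highest in the library numbered 1 and lowest in the one numbered 3 in MZsmad4a embryos. They were also highest in number 1 in WT embryos, where otx1 was lowest in number 3 and otx2b and six3a in number 2. sox3 was lowest in number 1 in both genotypes. six3b was lowest in number 1 in MZsmad4a embryos and highest in number 1 in WT embryos, and sox2 was highest in number 1 in MZsmad4a embryos and lowest in number 1 in WT embryos.

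A test for differences among the library numbers, in a model with genotype, gave an unadjusted p of 0.0214 for otx2b and 0.0306 for otx1, and 0.0677 or more for the other factors. After adjustment all 6 were at 0.922 or above, and edgeR called 0.0% of the 15720 tested genes (786 had an unadjusted p under 0.05). On the second principal component of all tested genes, which held 17.8% of the variance, the libraries numbered 1, 2 and 3 scored 32.3, -5.58 and -29.4 in MZsmad4a embryos and 33.4, -1.67 and -29.1 in WT embryos. What libraries of the same number share is not stated in the labels. Over the 6 libraries the log2 CPM of otx1 and otx2b had a Pearson r of 0.98, a value that includes both the genotype and the number of the library.

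Markers of other cells also differed between these libraries. Their sums are in TPM, without TMM scaling. Leaving that scaling out shifted the median log2 fold change of all tested genes by -0.11, so small differences between genotypes in these sums depend on the scaling. The summed TPM of 9 enveloping layer markers, the keratins and other genes of the embryo's outer cover, was 11300, 10190 and 9368 in MZsmad4a replicates 1, 2 and 3, against 10970, 10000 and 9495 in WT replicates 1, 2 and 3. That of 12 maternal and germ plasm transcripts was 1487, 1646 and 1784 in MZsmad4a libraries, against 1694, 1762 and 1899 in WT libraries. Both sums thus differed by library number in the same direction in the 2 genotypes, the enveloping layer sum highest and the maternal sum lowest in number 1. Single genes did not all follow the sums. In the maternal list pou5f3 averaged 1697 CPM in MZsmad4a and 1767 CPM in WT embryos, against 261 and 214 CPM for ddx4, the next gene. buc of that list was highest in WT replicate 1, and grhl3 of the enveloping layer was lowest in MZsmad4a replicate 1 among MZsmad4a libraries. The summed TPM of 6 yolk syncytial layer markers was 660, 436 and 429 in MZsmad4a libraries, against 499, 518 and 574 in WT libraries, and that of 7 mesoderm markers was 617, 760 and 761 in MZsmad4a libraries, against 997, 1093 and 1111 in WT libraries. The mesoderm sums did not overlap between genotypes, and MZsmad4a replicate 1, where otx1, otx2b and six3a were highest, had the lowest of them. The part of these differences in the levels of the 6 factors was not tested.

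Related and functionally linked genes were read from 15 lists of 157 symbols, of which 139 were matched to a gene of the files and 101 had enough counts to be tested. The lists were chosen with earlier results of these data known, so the shares of their genes only describe the lists. For 33 tested genes of the neural lists, the 6 factors among them, 0 were called higher and 2 lower in edgeR. By edgeR's unadjusted p under 0.05, 14 were higher and 6 lower (42.4% and 18.2%), against 8.68% and 8.81% of all tested genes. The 6 factors gave 4 of these 14 and 1 of these 6. Of the 33, DESeq2 called 7 higher and 3 lower, against 1.78% and 1.94% of the genes it gave an adjusted p. The 6 factors gave 2 of these 7 and 1 of these 3. The median log2 fold change of the 33 was 0.20, against -0.01 for all tested genes. Neither gene called by edgeR is an anterior one. They were cdx4, a homeobox gene of the posterior body, at 80.8, 66.3 and 62.5 CPM in MZsmad4a libraries against 195, 168 and 173 CPM in WT libraries (log2 fold change -1.36, adjusted p = 0.00202), and dld, a Notch ligand gene, at 61.2, 72.01 and 68.9 CPM in MZsmad4a libraries against 150.1, 139 and 141 CPM in WT libraries (log2 fold change -1.09, adjusted p = 0.00202). The 2 genotypes were well apart for both genes. The call of cdx4 was lost without MZsmad4a replicate 2 or 3 or WT replicate 2 (adjusted p = 0.0159, 0.0101 and 0.0106), and that of dld without MZsmad4a replicate 2 or 3 or WT replicate 1 or 2 (adjusted p = 0.0109, 0.0122, 0.0107 and 0.0123).

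Among the relatives of the 6 factors, otx2a, the third Otx gene tested, had the smallest p. It had 121, 108 and 91.1 CPM in MZsmad4a libraries, against 53.4, 62.8 and 52.6 CPM in WT libraries. Every MZsmad4a library lay above every WT library, as for 11.8% of all tested genes, without the overlap seen for otx1 and otx2b. Its log2 fold change was 0.92 (standard error 0.13), and the adjusted p of 0.0123 from edgeR narrowly missed the threshold that DESeq2's 1.022e-06 passed. Like otx1 and otx2b it was highest in number 1 and lowest in number 3 among the MZsmad4a libraries. The fourth listed Otx relative in the files, crx, a photoreceptor gene, had at most 1 expected count in any library.

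sox19a, a further SoxB1 gene, had 493, 542 and 501 CPM in MZsmad4a libraries, against 378, 394 and 369 CPM in WT libraries. All MZsmad4a libraries were above all WT libraries, with a log2 fold change of 0.43 (adjusted p = 0.0235 in edgeR and 0.00185 in DESeq2). sox19b had 63.6, 49.9 and 44.8 CPM in MZsmad4a libraries, against 34.0, 37.0 and 27.3 CPM in WT libraries, with a log2 fold change of 0.69 (adjusted p = 0.0861). Of the 4 SoxB1 genes tested, sox3 alone had overlapping groups. Among all tested genes 11.8% lay wholly above WT and 11.9% wholly below. The summed TPM of the SoxB list was 759, 882 and 851 in MZsmad4a libraries, against 759, 749 and 737 in WT libraries. The other listed SoxB genes, sox1a, sox1b, sox14 and sox21a, had at most 10 expected counts in any library.

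six7, the remaining tested Six3-related gene, had 3.81, 2.32 and 1.42 CPM in MZsmad4a libraries, against 7.26, 5.20 and 3.82 CPM in WT libraries. The groups did not overlap, although MZsmad4a replicate 1 and WT replicate 3 nearly met, and the log2 fold change was -1.10 (adjusted p = 0.208). Like six3b it lay below WT, and unlike six3b it was highest in MZsmad4a replicate 1 among the MZsmad4a libraries. six6a and six6b, eye field genes, had at most 4 expected counts.

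Few of the later forebrain genes were measurable at this stage. Of the 15 forebrain and eye field factors in the files, 12 had too few counts to be tested, with at most 35 expected counts in any library, and these included rx3, a marker gene of the eye field, with at most 5. The 3 tested were lhx5, PAX6 (ENSDARG00000045936, 1 of 2 copies) and emx2, none of which passed the threshold in edgeR. lhx5, a LIM homeodomain factor of the forebrain, had 102, 88.4 and 69.7 CPM in MZsmad4a libraries, against 44.4, 51.6 and 46.1 CPM in WT libraries (log2 fold change 0.87, adjusted p = 0.0243 in edgeR and 4.87e-05 in DESeq2, which called it). Its groups did not overlap, and its MZsmad4a values again were highest in number 1. The PAX6 copy had 2.02, 1.27 and 1.16 CPM in MZsmad4a libraries, against 0.0943, 0.573 and 0.437 CPM in WT libraries (adjusted p = 0.115). The WT value of 0.0943 lies below the 0.306 CPM that 3 counts are worth in that library before TMM scaling. emx2, a forebrain homeobox gene, had 0.462, 0.994 and 0.736 CPM in MZsmad4a libraries, against 1.23, 1.10 and 1.36 CPM in WT libraries, with every MZsmad4a library below every WT library (log2 fold change -0.74, adjusted p = 0.379).

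The early neural ectoderm list held 11 tested genes, with no call by edgeR in either direction and a median log2 fold change of 0.13. Its smallest p-values were those of 2 genes both named SOX11, a SoxC factor. ENSDARG00000077811 had 191, 196 and 203 CPM in MZsmad4a libraries, against 105, 140 and 146 CPM in WT libraries (log2 fold change 0.59, adjusted p = 0.0523 in edgeR and 0.00418 in DESeq2, which called it), and ENSDARG00000095743 had 428, 452 and 468 CPM in MZsmad4a libraries, against 286, 350 and 361 CPM in WT libraries (log2 fold change 0.43, adjusted p = 0.0689). Both lay above WT in every library. Of the 11 genes, 4 lay wholly above WT and 2 wholly below, against 11.8% and 11.9% of all tested genes. The 2 below were foxd5 (log2 fold change -0.25, adjusted p = 0.232) and the NR6A1 copy ENSDARG00000014480 (-0.73, adjusted p = 0.326). In the midbrain, hindbrain and posterior neural list, irx7, an Iroquois factor, had 96.2, 75.8 and 62.8 CPM in MZsmad4a libraries, against 40.6, 48.8 and 43.7 CPM in WT libraries (log2 fold change 0.82, adjusted p = 0.0425 in edgeR and 0.000631 in DESeq2, which called it). Among neurogenesis genes dla, a Notch ligand gene, had overlapping groups (log2 fold change -0.64, adjusted p = 0.326), and 7 others, among them neurog1 and elavl3, had at most 11 expected counts.

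**Figure D4:**
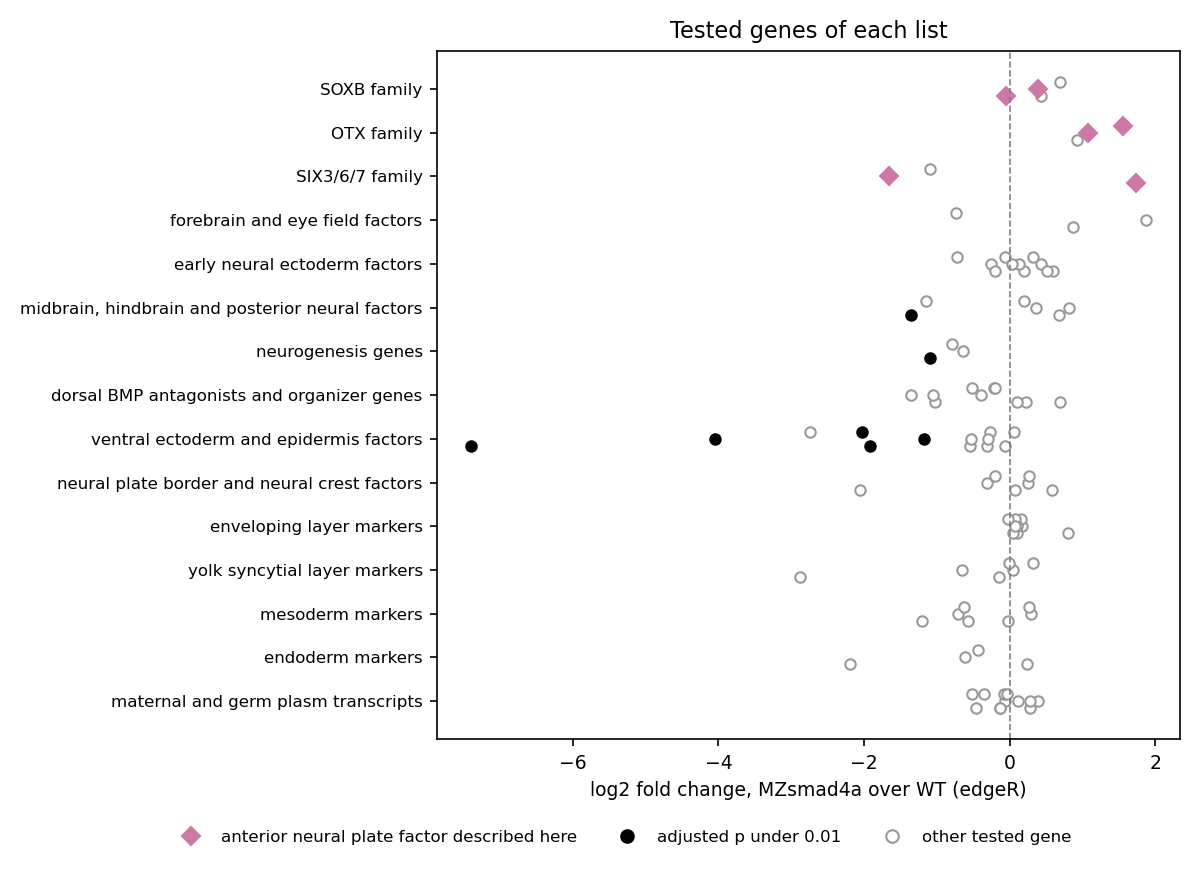
Log2 fold change, MZsmad4a over WT, of every tested gene, by list. Diamonds are the 6 factors, black dots genes with an adjusted p under 0.01 and open circles other genes. The black dots all lie left of 0, with 5 of them in the ventral ectoderm list, 1 in the posterior neural list and 1 in the neurogenesis list.

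The genes of the opposing fate and of the signals that divide the ectoderm were read beside these. Of 13 tested ventral ectoderm and epidermis factors, edgeR called 5 lower and 0 higher, against 0.490% and 0.223% of all tested genes. DESeq2 called the same 5 lower, and also tp63 (log2 fold change -2.74 and adjusted p = 0.0516 in edgeR, adjusted p = 0.000418 in DESeq2). For 9 of the 13, all MZsmad4a libraries lay below all WT libraries in CPM, against 11.9% of all tested genes. szl, a secreted inhibitor of the proteases that cleave Chordin, had 0.0, 0.221 and 0.263 CPM in MZsmad4a libraries, against 34.3, 29.3 and 23.4 CPM in WT libraries (adjusted p = 0.00055), and its call held with any library left out. msx3, ved, foxi1 and gata2a, transcription factors of the ventral side and epidermis, had log2 fold changes of -4.04, -2.03, -1.92 and -1.18 (adjusted p = 0.00391, 0.00475, 0.00523 and 0.00809). The groups did not overlap for any of the 5. The calls of foxi1 and gata2a were lost without any single library (adjusted p up to 0.0313 and 0.0443, both without MZsmad4a replicate 2). Their log2 fold changes then stayed between -2.08 and -1.74 for foxi1 and between -1.30 and -1.06 for gata2a. That of msx3 was lost without any MZsmad4a library or WT replicate 1 (up to 0.0268, without MZsmad4a replicate 2), and that of ved without MZsmad4a replicate 2 or WT replicate 1 or 2 (up to 0.0286, without MZsmad4a replicate 2).

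Of 10 tested dorsal BMP antagonists and organizer genes, edgeR called 0, with a median log2 fold change of -0.30. DESeq2 called frzb and fstl1b lower (adjusted p = 1.58e-06 and 0.000983), where it called 1.94% of its genes lower. In CPM, 4 of the 10 lay wholly below WT and 1 wholly above, against 11.9% and 11.8% of all tested genes. Those below were frzb, fstl1b, noto (log2 fold change -0.51) and nog1 (-1.05). The 1 above was dkk1b (0.70). The adjusted p of noto, nog1 and dkk1b in edgeR was 0.102, 0.114 and 0.104. frzb, a secreted Wnt antagonist, averaged 15.7 ± 2.40 CPM in MZsmad4a embryos and 32.0 ± 2.28 CPM in WT embryos (log2 fold change -1.02, adjusted p = 0.0152 in edgeR), and fstl1b, a follistatin-like gene, averaged 24.8 ± 11.4 CPM in MZsmad4a embryos and 63.3 ± 16.1 CPM in WT embryos (log2 fold change -1.35, adjusted p = 0.0781). chrd, which encodes Chordin, averaged 257 ± 26.6 CPM in MZsmad4a embryos and 298 ± 30.8 CPM in WT embryos, with overlapping groups (adjusted p = 0.364). None of the 7 tested neural plate border and neural crest genes passed the threshold in edgeR or DESeq2, where crestin and snai2 had the smallest p-values (adjusted p = 0.277 and 0.32).

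edgeR called none of the markers of other tissues in either direction, while DESeq2 called cyt1 higher (adjusted p = 0.00626) and mxtx2, msgn1, mespab and sox17 lower (adjusted p = 0.000419, 3.28e-08, 5.51e-05 and 2.5e-07). The values that follow are edgeR's. Leading genes of the enveloping layer were cyt1, a keratin gene, at 0.80 on the log2 scale (adjusted p = 0.0836), and krt4 at 0.17 (adjusted p = 0.34). Those of the yolk syncytial layer were mxtx2, a homeobox gene of that layer, with -2.88 (adjusted p = 0.0286), and apoa2, an apolipoprotein gene, with -0.66 (adjusted p = 0.265). Mesoderm was led by msgn1 at -1.21 (adjusted p = 0.0105) and mespab at -0.71 (adjusted p = 0.0213), both of them genes of presomitic mesoderm. Not all mesoderm markers were lower, since aplnrb at 0.30 and mespaa at 0.27 lay wholly above WT (adjusted p = 0.173 and 0.364). Of the 7, 4 lay wholly below and 2 wholly above, against 11.9% and 11.8% of all tested genes. Endoderm was led by sox17 with -2.19 (adjusted p = 0.0204) and gata5 with -0.61 (adjusted p = 0.0911). Of its 4 tested markers 3 lay wholly below WT, while gata6 had 0.23 with overlapping groups. In the maternal and germ plasm list, ddx4 had 0.28 (adjusted p = 0.248) and nanog 0.38 (adjusted p = 0.435). Over the ventral, border, organizer and tissue lists together, 68 genes were tested and edgeR called 5, all of them the 5 ventral genes above. By unadjusted p under 0.05, 4 of the 68 were higher and 23 lower (5.88% and 33.8%), against 8.68% and 8.81% of all tested genes. DESeq2 called 1 higher and 12 lower, against 1.78% and 1.94% of the genes it gave an adjusted p.

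The genes whose log2 CPM followed each factor most closely over the 6 libraries were found among 14084 tested genes with a mean of at least 1 CPM. With so few libraries a high r is reached by many genes, and the values only describe these libraries. They were ASAP2, TMEM131 and CBY1 for sox2 (highest r 0.998), txndc11, SCAP and MCFD2 for sox3 (0.994), KRI1, ENSDARG00000102015 and AMD1 for otx1 (0.996), CHD2, ZMYM2 and LPAR6 for otx2b (0.996), ENSDARG00000098474, NAA80 and COPS3 for six3b (0.999) and PUS10, ABT1 and MCM10 for six3a (0.996). ASAP2 had 64.5, 49.1 and 50.8 CPM in MZsmad4a libraries, against 27.6, 30.2 and 32.1 CPM in WT libraries (adjusted p = 0.0199 in edgeR). The gap between genotypes and the high value of MZsmad4a replicate 1, as in sox2, follow from its choice by r. ENSDARG00000098474, chosen in the same way, had 4.73, 6.24 and 6.41 CPM in MZsmad4a libraries, against 8.58, 7.97 and 7.53 CPM in WT libraries, the same order of libraries as six3b over a smaller range.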

How the data were processed

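Total RNA from 6 pools of whole zebrafish embryos was sequenced, and the study describes the 3 pools per genotype as biological replicates. The authors trimmed adapters, aligned the reads to GRCz11 with STAR, and quantified genes of an Ensembl annotation with RSEM. The deposited values are expected counts, TPM and FPKM per gene, the authors' RSEM estimates, and FPKM was not used. After rounding of the expected counts, genotypes were compared in edgeR 4.0.16 under R 4.3.3 (low counts removed by filterByExpr, TMM scaling, quasi-likelihood test of genotype, Benjamini-Hochberg adjustment over 15720 genes, threshold 0.01). DESeq2, which the authors also used, was an alternative (version 1.42.0 here). Further alternatives were other scalings, no filter, truncated counts, limma 3.58.1 on log2(TPM + 1) and log2(TPM + 0.1), the replicate number as a block, a threshold of 0.05 and leaving out each library. Log2 CPM used a prior count of 2. TPM, which is per length, was used to compare genes. Depth sets the precision, and 3 counts correspond to between 0.144 and 0.306 CPM before TMM scaling. The fit was tested on simulated data.

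The 6 genes and the lists were chosen with earlier results of these data known. Named genes were the 6 factors, genes of a list past the threshold, or the 2 with the smallest p where fewer than 2 passed, smad4a, and the 3 most similar genes per factor. Other genes are named for the families, for the stage, for DESeq2's calls and for the marker sums, after their values were seen. So are chrd, noto, nog1, dkk1b, foxd5, NR6A1 and ap5m1, and the mesoderm and endoderm markers that were higher. Symbols came from the study's gene table and an identifier table, in which some copies share a symbol.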

Additional observations from a re-analysis of the deposited data

How the results depend on the processing

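None of the 6 factors was called under any edgeR or limma setting. DESeq2's Wald test called otx2b (log2 fold change 1.55), six3a (1.74) and six3b (-1.65), so 2 members higher and 1 lower. Without MZsmad4a replicate 1 the log2 fold change of sox3 turned to 0.11, and without both libraries numbered 1, an alternative chosen after seeing the data, to 0.06. No other factor changed sign in any alternative. With libraries left out, the log2 fold change ranged from 0.31 to 0.42 for sox2, -0.18 to 0.11 for sox3, 0.66 to 1.38 for otx1, 0.96 to 1.92 for otx2b, -1.94 to -1.11 for six3b and 1.48 to 2.21 for six3a.

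Over all genes, 35 were called higher and 77 lower; the counts were 198 and 263 at an adjusted p under 0.05, 315 and 343 with DESeq2, 116 and 167 without the filter, and 4 to 29 and 9 to 47 with libraries left out. Genes of the neural lists called higher were 4 at 0.05, 7 with DESeq2 and 2 without the filter, and 0 to 2 were called lower with libraries left out. In the other lists, 1 was called higher with DESeq2, and the genes called lower were 10 at 0.05, 12 with DESeq2, 8 without the filter and 1 to 3 with libraries left out. Without the filter 3 genes differed among library numbers. Scaling by library size alone shifted the median log2 fold change of all tested genes by -0.11.

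With the replicate number as a block, 7 genes were called higher and 22 lower, 1 neural list gene lower and 2 of the other lists lower; dld, ved, foxi1 and gata2a were then not called (adjusted p = 0.0184, 0.0218, 0.0296 and 0.0373). The log2 fold changes were then 0.39 for sox2, -0.07 for sox3, 0.97 for otx1, 1.39 for otx2b, -1.74 for six3b and 1.73 for six3a (adjusted p between 0.0622 and 0.804). Deviations of same-numbered libraries from their group means correlated at 0.11, -0.03 and 0.14 for numbers 1, 2 and 3. Each MZsmad4a library correlated best with the WT library of its own number except replicate 2. The main tests did not take the numbers as pairs. These correlations cannot decide the pairing, since the second principal component ordered libraries by number in both genotypes. The study mentions 3 batches of both genotypes, without saying whether same-numbered libraries belong together. The paralogue ratio differences with the replicate number as a block were 0.46, -0.35 and -3.58, each with an exact p of 0.25, the smallest that 3 pairs allow.

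Counts were lowest for six3b and six3a, at 17 expected counts in MZsmad4a replicate 1 and 22 in WT replicates 2 and 3.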

Other observations

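The 2 protein-coding genes on each side of each factor were taken from RefSeq's gene order in GRCz12tu, a choice made after the values of the 6 factors were seen. Of the 24 neighbours listed, 11 were matched and tested, 3 had too few counts and 10 were not matched. edgeR called 0 of the 11. By its unadjusted p under 0.05, 1 was higher and 1 lower, 9.09% each, close to the 8.68% and 8.81% of all tested genes. DESeq2 called 1 of the 11 lower, where it called 1.94% of its genes lower. This was exoc5, an exocyst subunit gene next to otx2b, with 17.4, 18.2 and 17.9 CPM in MZsmad4a libraries, against 31.7, 34.3 and 39.1 CPM in WT libraries (log2 fold change -0.97, adjusted p = 0.0105 in edgeR). Its groups did not overlap, and its MZsmad4a values were nearly equal, whereas those of otx2b differed by 3.90 times between the highest and the lowest library.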
